A study of Mus musculus with 6 samples.

Results

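Epicardial and mesothelial genes were examined in native cardiac fibroblasts (CFs) as a set of 10 markers, chosen by name and found by gene symbol among the 49548 genes of the count table. They were *Wt1*, *Bnc1*, *Aldh1a2*, *Upk3b*, *Upk1b*, *Msln*, *Muc16*, *Lrrn4*, *Krt8* and *Krt19*, each with 1 row. The cells came from 3 WT and 3 CharmeKO samples of C57BL/6J mice aged 5 weeks, and CharmeKO mice carry a polyA signal inserted in the *Charme* locus, the gene of a cardiac long non-coding RNA. Hearts were dissociated, red blood cells were lysed and hematopoietic lineages were depleted, a procedure meant to collect the non-cardiomyocyte cells of the heart, whereas the labels also list a growth medium. Poly(A)-selected, directional libraries were sequenced, and the labels do not give the sex of the mice or say whether a sample is 1 animal.

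The epicardium is the mesothelial layer that covers the heart. During development, epicardial cells lose their epithelial features and give rise to most CFs and to mural cells of the coronary vessels, and the layer persists in the adult as a thin sheet. WT1 is a transcription factor of this layer, ALDH1A2 makes retinoic acid in it, and the uroplakins, mesothelin and keratins belong to its epithelial surface and cytoskeleton. *Wt1* is not restricted to mesothelium, as endothelial cells of the heart can also express it.

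For 6 of the 10 genes the RefSeq promoter table (GRCm38.p6) held a sequence. These were *Upk3b*, *Lrrn4*, *Krt8*, *Bnc1*, *Muc16* and *Aldh1a2*. The 250 bases upstream of the annotated start are shown for 3 genes of the mesothelial surface that had no count in CharmeKO replicate 1 and for *Aldh1a2*, which was abundant in the same library. The windows lie at chr5:136038246-136038495, plus strand for *Upk3b*, at chr2:132880863-132881112, minus strand for *Lrrn4*, at chr9:18674604-18674853, minus strand for *Muc16* and at chr9:71215539-71215788, plus strand for *Aldh1a2*. The counts were made on another assembly, so these positions serve the sequences only. Each is written 5′ to 3′ on the strand of its gene, and capitals mark exact matches, on either strand, to one of 5 motifs, none of which overlapped another in these windows. The motif bound by TEAD factors was searched as CATTCC. That bound by Sp1 was searched as GGGCGG. For GATA factors the search used the letters AGATAA. The core promoter element known as the TATA box was searched as TATAAA. The remaining motif, bound by the factor NF-Y, was CCAAT.
Upk3b: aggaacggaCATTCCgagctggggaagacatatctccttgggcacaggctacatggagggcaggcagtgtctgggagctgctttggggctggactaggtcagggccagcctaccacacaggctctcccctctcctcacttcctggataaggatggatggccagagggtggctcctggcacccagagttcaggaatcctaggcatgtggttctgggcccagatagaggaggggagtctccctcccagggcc
Lrrn4: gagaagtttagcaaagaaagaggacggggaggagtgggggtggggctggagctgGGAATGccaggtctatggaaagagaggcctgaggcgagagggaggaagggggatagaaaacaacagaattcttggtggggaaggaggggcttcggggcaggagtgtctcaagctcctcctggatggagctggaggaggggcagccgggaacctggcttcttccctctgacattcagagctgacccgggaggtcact
Muc16: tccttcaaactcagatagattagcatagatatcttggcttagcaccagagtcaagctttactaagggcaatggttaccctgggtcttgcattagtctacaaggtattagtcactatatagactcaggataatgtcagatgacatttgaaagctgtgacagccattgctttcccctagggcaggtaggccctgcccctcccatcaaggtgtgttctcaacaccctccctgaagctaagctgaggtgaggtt
Aldh1a2: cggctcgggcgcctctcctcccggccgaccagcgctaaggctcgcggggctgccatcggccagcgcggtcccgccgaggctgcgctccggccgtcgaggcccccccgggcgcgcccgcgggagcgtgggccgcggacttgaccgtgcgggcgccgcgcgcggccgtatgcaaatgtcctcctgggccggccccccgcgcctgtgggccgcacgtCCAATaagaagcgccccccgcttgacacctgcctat
The TEAD motif was in the windows of *Upk3b* and *Lrrn4* and in 12.6% of all 32851 promoters of the table. The CCAAT motif was in the window of *Aldh1a2* and in 33.8% of all promoters. The window of *Muc16* held none of the 5 motifs. Of the 2 windows not shown, that of *Bnc1* held 5 matches to the Sp1 motif, which 32.7% of promoters contain, and that of *Krt8* held 1 match to the GATA motif, which 9.99% contain. G and C made up 77.6% of the bases for *Aldh1a2*, 83.6% for *Bnc1*, 60.8% for *Upk3b*, 59.2% for *Lrrn4*, 58.0% for *Krt8* and 46.4% for *Muc16*, beside a median of 52.4% over all promoters.

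Reads counted on genes ranged from 9595701 in WT replicate 3 to 42101393 in WT replicate 1. *Charme* had 26, 15 and 4 counts in WT replicates 1, 2 and 3 and 7, 0 and 0 counts in CharmeKO replicates 1, 2 and 3 (exact permutation test on CPM, two-sided, p = 0.1, the smallest p that 3 against 3 libraries allow). Markers of fibroblasts were abundant, with 10 genes summing to between 32300 and 41100 CPM per library, while 8 endothelial genes summed to between 7360 and 9990 CPM and 8 leukocyte genes to between 27.1 and 51.3 CPM. The 5 erythroid genes, mostly hemoglobins, still summed to between 24400 and 39200 CPM. All levels are CPM, which are counts scaled to a common library size with TMM factors. In 8 genes of other epithelia the sum was between 0.423 and 1.18 CPM, and the lung genes *Sftpc* and *Scgb1a1* had no count in any library. Where a gene had no read, the upper limit was set at 3 counts, equal to 0.0705 CPM in the deepest library and 0.323 CPM in the shallowest. Such limits and intervals cover counting error only.

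Across the 10 genes, *Wt1* and *Aldh1a2* stood far above the others. Together they held between 78.6% of the set's counts in WT replicate 2 and 99.2% in CharmeKO replicate 1. Divided by gene model length, *Aldh1a2* was at 25.6 ± 10.5 CPM per kb (SD, n = 3) in WT and 26.7 ± 3.06 in CharmeKO, and ranked 1667 of 15764 tested genes with a length. *Wt1* followed at 8.19 ± 0.649 CPM per kb in WT and 5.21 ± 0.170 in CharmeKO, at rank 5444. The WT levels per kb of these 2 genes did not overlap with each other or with those of the rest.

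The remaining genes were low. On the same scale of CPM per kb in WT, *Upk3b* was at 1.51 ± 1.02 (SD, n = 3), *Krt19* at 1.02 ± 0.536, *Msln* at 0.951 ± 0.627, *Lrrn4* at 0.524 ± 0.386 and *Upk1b* at 0.480 ± 0.331, and each of these differed from its neighbour in the order by less than the larger of their SDs. *Krt8* was at 0.138 ± 0.0918, *Bnc1* at 0.0284 ± 0.0153 and *Muc16* at 0.0246 ± 0.0211 CPM per kb. By the mean of all 6 libraries, *Msln* came before *Krt19* and *Muc16* before *Bnc1*. Of the 10 genes, 8 reached 10 counts in 2 or more libraries and were tested, and *Bnc1* and *Muc16* were not. *Krt8* passed with 1 library of each group at that count. *Upk1b* reached it in 2 WT libraries and 1 CharmeKO library, and *Lrrn4* in 3 and 1. These 2 genes were thus tested only because of their WT counts.

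To see whether these genes differed between genotypes, CharmeKO was compared with WT over all 15789 tested genes by the quasi-likelihood test of edgeR. Of the 8 tested markers, 1 gene, *Wt1*, was called lower in CharmeKO at an adjusted p-value under 0.05, and 0 were called higher. Over all tested genes 0.412% were called lower and 0.418% higher, and 0.83% were called in either direction. DESeq2 called *Wt1* alone as well, beside 2.5% of all tested genes in either direction. Without the filter on low counts, *Upk3b* and *Lrrn4* were also called lower, beside 1.81% of all genes with a count. The log2 fold change of *Upk3b* was then −1.71 with a standard error of 0.344, beside −1.72 and 0.869 with the filter. Calls over all genes rose from 131 to 699, and the cause of these changes was not tested. The median log2 fold change was −0.90 over the 8 genes and 0.0096 over all tested genes, with 7 genes at a negative value and *Aldh1a2* at a positive one. In 4 of the 8 genes the unadjusted p-value was under 0.05, beside 12.8% of all tested genes. This median and these tallies include *Upk1b* and *Lrrn4*, which passed the count filter through WT, where they were higher. They are therefore a description and not support for a difference of the set. In bulk libraries, fewer cells of a type and less RNA per cell cannot be told apart.

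*Wt1*, the zinc finger transcription factor of the epicardium, fell in CharmeKO native CFs. Its levels were 52.5, 53.6 and 46.2 CPM in WT replicates 1, 2 and 3 and 33.3, 31.2 and 32.3 CPM in CharmeKO replicates 1, 2 and 3. All 3 CharmeKO libraries lay below all 3 WT libraries and close to one another. The means were 50.8 ± 4.02 CPM in WT (SD, n = 3) against 32.3 ± 1.05 in CharmeKO, with a log2 fold change of −0.66 (standard error [SE] 0.112, edgeR adjusted p = 0.0189).

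In the 6 fits that omitted 1 library each, the log2 fold change of *Wt1* stayed between −0.72 and −0.62. The adjusted p in edgeR was under 0.05 in 3 of them and was 0.0895 without WT replicate 1, 0.101 without CharmeKO replicate 1 and 0.113 without CharmeKO replicate 2. The antisense gene *Wt1os*, which starts beside *Wt1* on the other strand, had 16, 6 and 1 counts in WT and 7, 0 and 7 counts in CharmeKO, in the order of the replicates, and was not tested. Strand-specific counting separates it from *Wt1*.

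Some markers of other cell types also differed between the groups. The 4 endocardial markers *Npr3*, *Vwf*, *Cytl1* and *Plvap* summed to 707 to 836 CPM in WT, compared with 522 to 611 CPM in CharmeKO. *Vwf* made up most of that sum, at 636 ± 56.9 CPM in WT (SD, n = 3) against 452 ± 49.5 in CharmeKO (edgeR adjusted p = 0.159), and *Plvap* was the one called, at 59.5 ± 3.18 against 31.5 ± 5.50 CPM (edgeR adjusted p = 0.00791). *Npr3* was at 49.9 ± 2.84 against 47.7 ± 4.16 CPM and *Cytl1* at 35.7 ± 10.5 against 40.7 ± 10.3 CPM, both with overlapping groups. The 8 cardiomyocyte markers summed to 252 to 321 CPM in WT, compared with 370 to 568 CPM in CharmeKO. None of them was at 0 in any library. *Myh6* and *Tnni3* were called higher in CharmeKO, beside 0.418% of all tested genes. *Tnnt2*, *Myl2*, *Ryr2* and *Pln* were higher but not called. *Actc1*, at 61.0 against 63.0 CPM (means, WT first), and *Nppa* overlapped between the groups. Of 10 genes of the response to dissociation, the heat shock genes *Hspa1a* and *Hspa1b* were called higher in CharmeKO, with log2 fold changes of 1.30 and 1.59 (edgeR adjusted p = 0.0116 and 0.0176). These 2 genes are near-identical copies, so their separate counts are uncertain, and the sum of the 10 genes overlapped between the groups, at 27600 to 40000 CPM in WT and 32500 to 35800 CPM in CharmeKO. The sums of the 10 fibroblast markers, between 37500 and 41100 CPM in WT and between 32300 and 39400 CPM in CharmeKO, and those of the 8 endothelial markers overlapped between the groups. *Gsn* dominated the fibroblast sum, at 20800 against 21200 CPM, while *Dcn* was at 3180 against 3910, *Pi16* at 1260 against 989 and *Col1a1* at 4050 against 2380 CPM (means, WT first). Of the endothelial markers *Kdr*, *Tek*, *Emcn* and *Fabp4* were higher in CharmeKO without overlap, and *Pecam1*, *Cdh5*, *Tie1* and *Egfl7* overlapped. The share of all tested genes without overlap in the higher direction was not taken, so this split is a description only. No gene of either list was called. The part of these lists in the difference of *Wt1* was not tested.

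*Bnc1*, a zinc finger protein of mesothelium and other epithelia, was near the limit of counting. It had 9, 2 and 1 counts in WT replicates 1, 2 and 3, and 0 counts in each CharmeKO library. With so few counts a difference was not detectable at this depth.

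*Aldh1a2* encodes the retinaldehyde dehydrogenase of the epicardium, which makes retinoic acid. Its levels were 76.6, 31.2 and 66.3 CPM in WT replicates 1, 2 and 3 and 67.5, 53.7 and 59.9 CPM in CharmeKO replicates 1, 2 and 3. The CharmeKO values all fell within the range of WT, which WT replicate 2 widened at its lower end. The log2 fold change was 0.060 (SE 0.253, edgeR adjusted p = 0.947), and it became negative when WT replicate 2 (−0.25) or CharmeKO replicate 1 (−0.027) was omitted. *Wt1* and *Aldh1a2* thus had different patterns over the libraries, as *Wt1* was highest in WT replicate 2, where *Aldh1a2* was lowest.

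**Figure D1:**
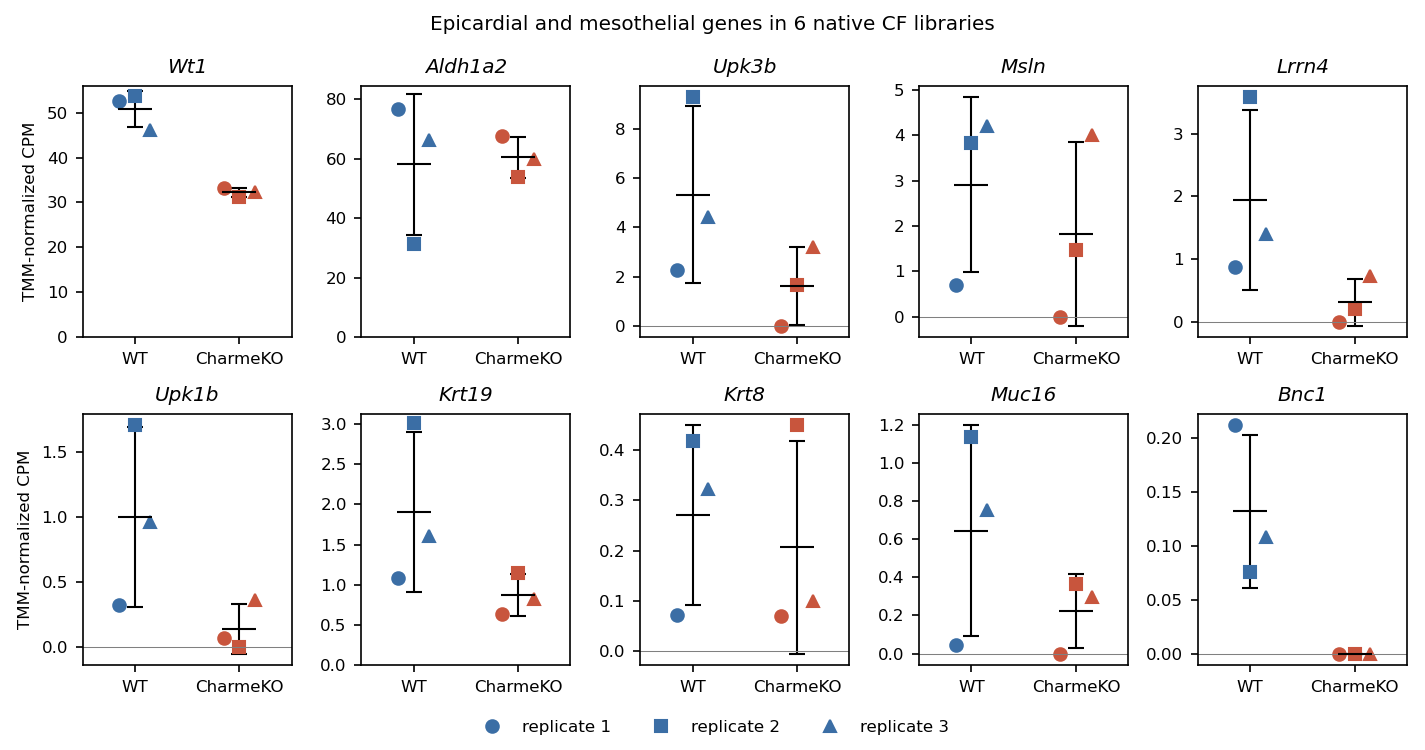
TMM-normalized CPM (y axis, a separate scale per panel) of the 10 epicardial and mesothelial genes in WT (blue) and CharmeKO (red) native CFs. Circles, squares and triangles are replicates 1, 2 and 3, and horizontal lines with bars are means ± SD (n = 3). *Wt1* separates the groups with little spread, at 50.8 against 32.3 CPM, while the surface genes spread widely within each group.

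The genes of mesothelial surface proteins varied more between libraries of one genotype than *Wt1* did. They also had far fewer counts than *Wt1*, and the part of counting error in this spread was not tested. *Upk3b*, a uroplakin of the mesothelial membrane, had 96, 244 and 41 counts in WT replicates 1, 2 and 3, or 2.26, 9.28 and 4.41 CPM. In CharmeKO replicates 1, 2 and 3 it had 0, 40 and 97 counts, or 0, 1.64 and 3.19 CPM. WT replicate 2 was the highest library and CharmeKO replicate 1 had no read at all, so that *Upk3b* was at least 88.6-fold higher in the former (3 counts as the limit in CharmeKO replicate 1). The groups overlapped, as CharmeKO replicate 3 lay above WT replicate 1. The log2 fold change was −1.72 (SE 0.869, edgeR adjusted p = 0.444), −0.99 without WT replicate 2 and −2.73 without CharmeKO replicate 3.

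*Msln* encodes mesothelin, a cell surface glycoprotein that binds the mucin MUC16. Its levels were 0.705, 3.84 and 4.2 CPM in WT, and 0, 1.47 and 4.01 CPM in CharmeKO, with replicates in order. Both groups thus spanned nearly the same range. The log2 fold change was −0.61 (SE 0.984, edgeR adjusted p = 0.847), −0.022 without CharmeKO replicate 1, the library without a read of *Msln*, and −1.97 without CharmeKO replicate 3. *Muc16*, the gene of its partner, had 2, 30 and 7 counts in WT and 0, 9 and 9 counts in CharmeKO, again with the most in WT replicate 2 and none in CharmeKO replicate 1.

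*Lrrn4*, a membrane protein with leucine-rich repeats, was at 0.870, 3.58 and 1.40 CPM in WT replicates 1, 2 and 3 and at 0, 0.205 and 0.724 CPM in CharmeKO replicates 1, 2 and 3. The groups did not overlap, which among the 8 tested genes held for *Lrrn4* and *Wt1* and among all tested genes, in the lower direction, for 8.59%. The log2 fold change of *Lrrn4* was −2.62 (SE 0.925, edgeR adjusted p = 0.270). It rested on 144 counts in WT and 27 counts in CharmeKO.

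*Upk1b*, the tetraspanin partner of uroplakins in the urothelium, was at 0.329, 1.71 and 0.968 CPM in WT and at 0.0699, 0 and 0.362 CPM in CharmeKO, in the order of the replicates. CharmeKO replicate 3 lay above WT replicate 1, so the groups overlapped. The log2 fold change was −2.70 (SE 1.03, edgeR adjusted p = 0.305), and between −4.58 and −1.96 with each library left out. Of the other uroplakins, *Upk1a* was at 0.559 ± 0.114 CPM in WT (SD, n = 3) against 0.519 ± 0.239 in CharmeKO. *Upk2* and *Upk3a* had no count in any library.

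The keratins form the intermediate filaments of epithelial cells from pairs of a type I and a type II chain. *Krt19*, a type I chain, was at 1.08, 3.01 and 1.61 CPM in WT and at 0.629, 1.15 and 0.822 CPM in CharmeKO, in the order of the replicates. CharmeKO replicate 2 lay above WT replicate 1. The log2 fold change was −1.14 (SE 0.504, edgeR adjusted p = 0.378), and −0.60 without WT replicate 2. *Krt8*, the type II chain, had between 2 and 11 counts in each library, and its log2 fold change of −0.335 (SE 1.07, edgeR adjusted p = 0.925) turned to 0.089 without CharmeKO replicate 1 and to 0.0096 without CharmeKO replicate 3. *Krt18*, the usual partner of *Krt8*, had between 0 and 14 counts.

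**Figure D2:**
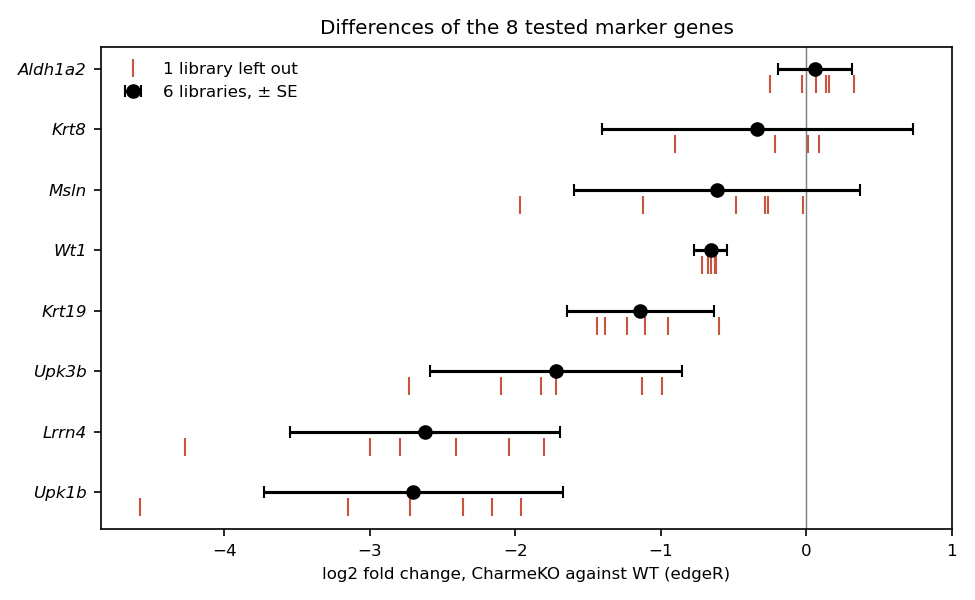
Log2 fold change between CharmeKO and WT (x axis) of the 8 tested genes from edgeR, with black points and bars for the estimate ± standard error from 6 libraries and red ticks for the fits with 1 library left out. The ticks of *Wt1* lie between −0.72 and −0.62, whereas those of *Upk1b* reach from −4.58 to −1.96.

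CharmeKO replicate 1 stood apart from the other libraries in these genes. Of the 10 genes, 5 had no count in it, namely *Upk3b*, *Msln*, *Lrrn4*, *Muc16* and *Bnc1*, although this library had 26884439 counts in all. No gene of the set was at 0 in a WT library, 2 were at 0 in CharmeKO replicate 2 and 1 in CharmeKO replicate 3. Between 0.348% and 2.31% of all tested genes were at 0 in a library, with 0.595% in CharmeKO replicate 1. That share covers tested genes only, and *Bnc1* and *Muc16* were not tested. *Upk3b*, *Msln* and *Lrrn4* ranked 11294, 11849 and 13658 of 15764 tested genes by level per length. The share is thus over mostly more abundant genes and is no matched background for them. Of the 22 counts that the 8 low genes had in CharmeKO replicate 1, *Krt19* held 81.8% (exact 95% interval 59.7% to 94.8%), compared with between 8.65% and 21.7% in the other 5 libraries. The share of *Upk3b* was between 31.0% and 40.5% in those 5 libraries.

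Summed over the 8 genes other than *Wt1* and *Aldh1a2*, the level was 5.57, 23.1 and 13.8 CPM in WT replicates 1, 2 and 3 and 0.768, 5.28 and 9.51 CPM in CharmeKO replicates 1, 2 and 3. The groups overlapped in this sum, since CharmeKO replicate 3 exceeded WT replicate 1, and *Upk3b* and *Msln* made up much of it outside CharmeKO replicate 1. When the 8 tested genes, *Wt1* and *Aldh1a2* included, were standardised over the libraries and weighted equally, their mean was −0.00739, 0.878 and 0.59 in WT and −0.975, −0.318 and −0.168 in CharmeKO, in the order of the replicates. By that mean, which includes *Upk1b* and *Lrrn4*, tested only because of their WT counts, every CharmeKO library lay below every WT library. As a description over the same 6 libraries, the levels of *Upk3b* and *Lrrn4*, as log2(CPM + 0.5), had a Pearson r of 0.928, those of *Upk3b* and *Msln* 0.896 and those of *Upk1b* and *Lrrn4* 0.958. *Wt1* had an r of 0.603 with *Upk3b* and 0.249 with *Msln*. *Aldh1a2* had a negative r with each of the other 7 tested genes, between −0.79 with *Krt19* and −0.25 with *Wt1*.

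Some of the low genes, and the sum of all of them, also went with a split of the libraries that is not the genotype. *Xist*, the RNA of the inactive X chromosome, was at 395, 473 and 376 CPM in WT replicate 1, CharmeKO replicate 1 and CharmeKO replicate 2. In WT replicates 2 and 3 and CharmeKO replicate 3 it was at most 2.55 CPM, and the Y-linked *Ddx3y* was between 48.7 and 57.1 CPM. CharmeKO replicate 1 had *Ddx3y* at 2.06 CPM beside its *Xist*. The summed level of the 8 low genes was between 0.768 and 5.57 CPM in the 3 libraries high in *Xist* and between 9.51 and 23.1 CPM in the 3 others. For *Upk3b*, *Upk1b* and *Msln*, every library low in *Xist* lay above every library high in it, as did 6.66% of all tested genes. *Lrrn4*, *Krt19*, *Krt8*, *Muc16* and *Bnc1* overlapped between the libraries high and low in *Xist*, and *Bnc1* was highest in a library high in it.

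Within the libraries high in *Xist*, the summed level was 5.57 CPM in the WT library and 0.768 and 5.28 CPM in the CharmeKO libraries. Within those low in *Xist* it was 23.1 and 13.8 CPM in WT and 9.51 CPM in CharmeKO. With a term for this split, chosen after seeing the data, the log2 fold change was −1.30 for *Upk3b*, 0.013 for *Msln* and −2.34 for *Lrrn4*. That of *Wt1* was −0.67 (edgeR adjusted p = 0.0347). *Wt1* was at 52.5 CPM in WT and at most 33.3 CPM in CharmeKO among the libraries high in *Xist*, and at least 46.2 CPM in WT and 32.3 CPM in CharmeKO among the others.

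**Figure D3:**
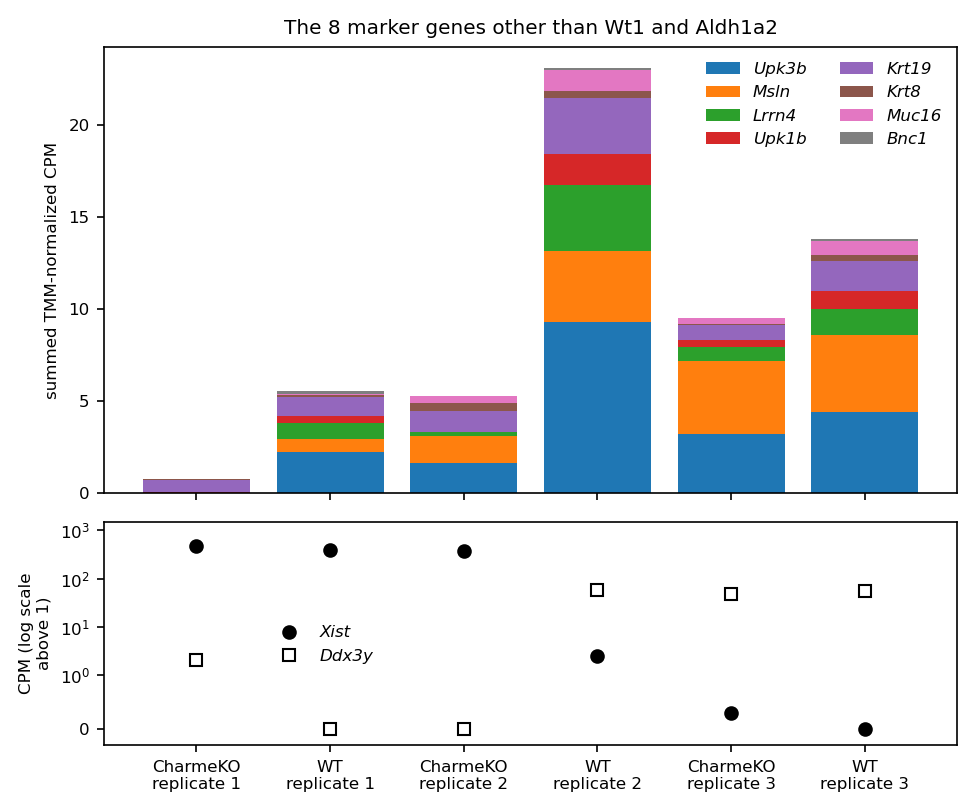
Summed CPM of the 8 genes other than *Wt1* and *Aldh1a2* in each library (upper panel, stacked by gene) and CPM of *Xist* (filled circles) and *Ddx3y* (open squares, lower panel, log scale above 1). Libraries are ordered by *Xist*, and the 3 on the right, low in *Xist*, hold between 9.51 and 23.1 CPM of the 8 genes.

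Other genes of the epicardium and mesothelium were taken from 6 lists by role. Of 90 genes in the table, 67 were tested, and edgeR called 0 of them. An unadjusted p-value under 0.05 was found for 17 of the 67, beside 12.8% of all tested genes. These 17 include *Lrp2*, *Cldn10* and *Cyp26c1*, which passed the count filter through WT libraries alone. The lists were also chosen with earlier results of these data known. This tally is therefore a description and not support for a difference of the lists. DESeq2 called 2, beside 2.5% of all tested genes. Both, named after their values were seen, were *Pdpn*, a mucin-type surface protein of mesothelium and lymphatic vessels, and *Rarres2*, which encodes chemerin. *Pdpn* was at 35.5 ± 1.00 CPM in WT (SD, n = 3) against 24.4 ± 1.29 in CharmeKO, or −0.54 on the log2 scale (edgeR adjusted p = 0.0638). *Rarres2* was at 90.8 ± 11.0 CPM in WT against 124 ± 8.36 in CharmeKO, or 0.45 on the log2 scale (edgeR adjusted p = 0.154). Neither gene overlapped between the groups, beside 8.59% of all tested genes that did not overlap in the lower direction. No such share was taken for the higher direction. As both genes were named for a call, the lack of overlap is no separate evidence.

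The list of mesothelial surface and keratin genes had 16 tested genes, of which 12 had a lower and 4 a higher value in CharmeKO, with a median log2 fold change of −0.41. Its most abundant gene was *Podxl*, a sialomucin that endothelial cells also carry, at 1220 ± 211 CPM in WT (SD, n = 3) against 1380 ± 55.4 in CharmeKO. Of its 25 genes with any count, 9 were at 0 in CharmeKO replicate 1, 8 in CharmeKO replicate 2, 4 in CharmeKO replicate 3 and WT replicate 1, and 2 in WT replicates 2 and 3. Among the untested genes, picked after seeing the counts, *Krt7* had 9, 17 and 3 counts in WT and 0, 0 and 5 counts in CharmeKO. *Cdh3*, the gene of P-cadherin, had 3, 25 and 5 counts in WT and 0, 0 and 5 counts in CharmeKO. As with *Upk3b*, WT replicate 2 had the most counts of both. *Calb2* had 4 counts in all, each in WT replicate 2. The untested genes *Cdh1*, *Krt14*, *Krt20* and *Slpi* of the list did not share this pattern. *Cdh1* had 0, 0 and 0 counts in WT and 1, 5 and 0 in CharmeKO, and *Krt14* had 0, 0 and 3 against 0, 5 and 0. *Krt20* (21, 3 and 6 counts in WT) and *Slpi* (16, 4 and 2) were lower in CharmeKO but had the most counts in WT replicate 1, the deepest library. Scaled to CPM, *Krt20* was highest in WT replicate 3, at 0.645 against 0.494 in WT replicate 1, while *Slpi* stayed highest in WT replicate 1. The 2 tested genes farthest below 0 on the list, named for that, were *Lrp2* with 15, 16 and 4 counts in WT and 0, 0 and 3 counts in CharmeKO, and *Cldn10* with 16, 17 and 10 counts in WT and 0, 3 and 4 counts in CharmeKO (edgeR adjusted p = 0.241 and 0.267). Both passed the count filter through WT libraries alone. The tally by direction and the median of this list include these 2 genes. They are therefore a description and not support for a difference of the list.

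Among 16 tested transcription factors of the epicardium, 9 had a lower and 7 a higher value, and the median difference was −0.027 (log2). *Tcf21*, which marks epicardium and CFs, had a log2 fold change of 0.15 (SE 0.114, edgeR adjusted p = 0.619), and its groups overlapped. *Tbx18*, another marker of epicardium, was at 15.1 ± 1.57 CPM in WT (SD, n = 3) against 15.5 ± 0.867 in CharmeKO. The most abundant factor was *Tbx20*, at 170.0 ± 26.2 against 176 ± 21.9 CPM. *Gata5*, untested and picked after its counts were seen, had 3, 29 and 6 counts in WT and 0, 6 and 1 counts in CharmeKO, so that WT replicate 2 was again the highest and CharmeKO replicate 1 at 0.

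In the retinoic acid pathway, 9 of 17 tested genes had a lower and 8 a higher value, and the median difference was −0.027 (log2). The receptor gene *Rarg* was the most abundant, at 151 ± 26.7 CPM in WT (SD, n = 3) against 157 ± 19.9 in CharmeKO. *Aldh1a1*, which shares the enzyme activity of *Aldh1a2*, was at 108 ± 17.8 against 140.0 ± 28.7 CPM, or 0.38 on the log2 scale (edgeR adjusted p = 0.386). *Cyp26c1*, one of the enzymes that degrade retinoic acid and the gene farthest below 0, had 13, 23 and 0 counts in WT and 2, 0 and 0 counts in CharmeKO (edgeR adjusted p = 0.279). It, too, passed the count filter through WT libraries alone. The 6 tested partners and neighbours of *Wt1* had a median log2 fold change of 0.14, with *Vcam1* the most abundant at 113 ± 17.9 and 162 ± 24.2 CPM. The 11 tested secreted factors had a median of 0.050, with *Cxcl12* at 921 ± 115 and 1180 ± 68.4 CPM. The median of the 67 genes was −0.051.

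**Figure D4:**
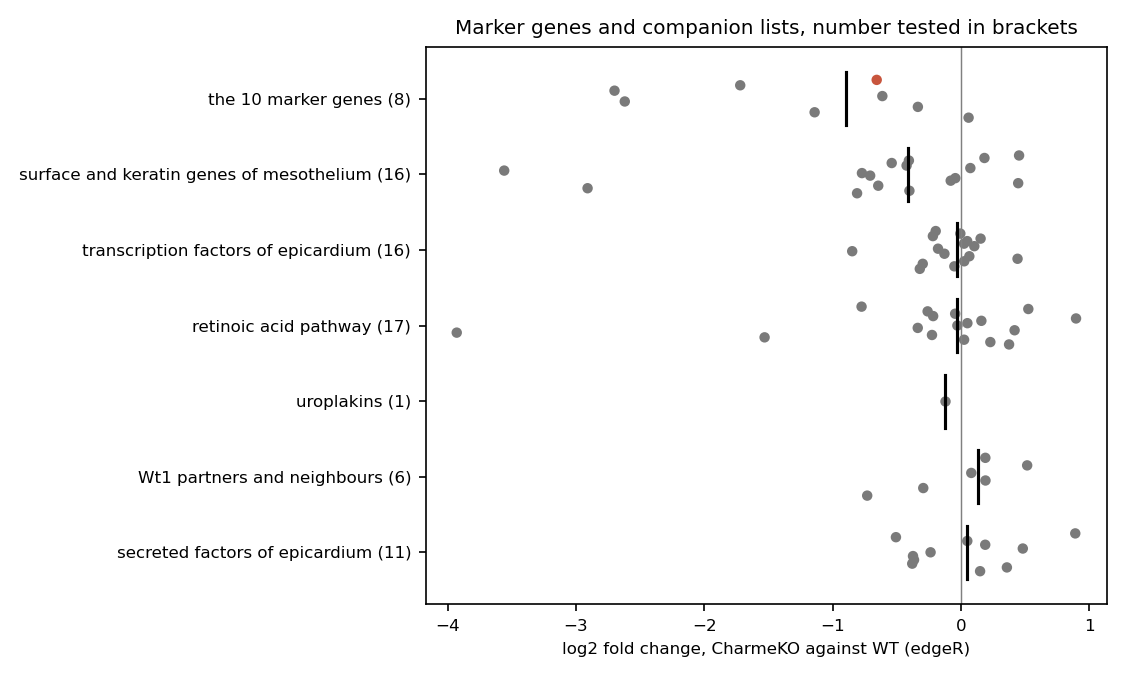
Log2 fold changes between CharmeKO and WT (x axis, edgeR) of the tested genes in the marker set and the 6 other lists (rows), with 1 point per gene, red where called, and a black line at the median. *Wt1* is the single red point, and the medians of the other lists run from −0.41 to 0.14.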

How the data were processed

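Native CFs of 3 WT and 3 CharmeKO samples were compared. The authors aligned Q30-filtered reads with STAR to a mouse assembly (GRCm39, per the labels), counted them per gene on an Ensembl annotation with *Charme* added, kept the reverse-strand counts and deposited these raw counts without normalization. The study describes its replicates as independent biological replicates and cell isolations, and the labels name no animal for a sample.

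Genes reaching 10 counts in 2 or more libraries were tested with edgeR 4.0.16 (TMM, glmQLFit, glmQLFTest, two-sided, Benjamini-Hochberg, threshold 0.05) in R 4.3.3. Standard errors come from the F statistic. The fit was tested on simulated data. DESeq2 1.42.0, RLE and upper-quartile factors, filterByExpr, no filter, a replicate block, each library left out (the filter applied again) and a term for the *Xist* split were alternatives. The *Xist* term and the alternatives for the lists were added after seeing the data. Genes at 0 in a library have fitted fold changes that depend on edgeR's prior count.

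Named genes were the 10 markers, the most abundant and any called gene of each list, and the 10 genes most like the markers across libraries, of which 1 is not reported here. Markers and lists were chosen with earlier results of these data known. Gene model lengths came from GENCODE M21 (GRCm38) and matched 99.8% of tested genes. No pair of libraries agreed within sampling noise. Promoters came from RefSeq, and figures from matplotlib 3.10.9. Cultured CFs were not analysed here.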

Additional observations from a re-analysis of the deposited data

How the results depend on the processing

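*Wt1* was called in edgeR with RLE factors, upper-quartile factors, filterByExpr, no filter, the replicate block and the *Xist* term, and in DESeq2, with log2 fold changes between −0.67 and −0.64 and adjusted p-values between 0.000176 in DESeq2 and 0.0347 with the *Xist* term. Without any filter on low counts, 3 of the 10 markers were called lower, *Wt1*, *Upk3b* and *Lrrn4*, beside 1.81% of 24579 genes, 5 genes of the other lists were called, and 699 genes in all. DESeq2 called 394 of all genes and 2 of the lists. With the replicate block these numbers were 302 and 2, and *Wt1* stayed the single marker called, while *Msln* moved from −0.612 to −1.34, *Upk3b* from −1.72 to −2.27 and *Aldh1a2* from 0.0604 to 0.146 (edgeR adjusted p = 0.36, 0.157 and 0.749). Same-numbered libraries deviated together with r of 0.181, 0.0343 and 0.143, and 5 of 6 libraries correlated best with their own number. Since 1 of the 3 values was under 0.1 the numbers were not taken as pairs. The libraries numbered 1 were both high in *Xist* and those numbered 3 both low, while those numbered 2 differed. A shared number and a shared *Xist* level were not told apart here. With each library left out, between 0 and 1 markers, between 0 and 2 genes of the lists and between 61 and 349 of all genes were called. The count of all genes was 349 without WT replicate 2, and 71, 67, 61 and 67 without WT replicate 1, WT replicate 3, CharmeKO replicate 1 and CharmeKO replicate 2. The 2 genes of the lists were *Rarres2* and *Dhrs3*, called without WT replicate 2. The cause of these changes was not tested. With the *Xist* term *Msln* was at 0.0129 and *Aldh1a2* at −0.0134. With each library left out *Aldh1a2* ranged from −0.248 to 0.33 and *Krt8*, which was not tested without WT replicate 2 or CharmeKO replicate 2, from −0.9 to 0.0891. DESeq2 gave no adjusted p for *Krt8*. By the mean over all 6 libraries, levels per length ran in the order *Aldh1a2*, *Wt1*, *Upk3b*, *Msln*, *Krt19*, *Lrrn4*, *Upk1b*, *Krt8*, *Muc16* and *Bnc1*, and without division by length 2 of the 10 genes, *Krt8* and *Muc16*, changed places. In the order by WT means alone, *Krt19*, *Msln*, *Lrrn4*, *Krt8*, *Bnc1* and *Muc16* changed place. With CPM on library totals the summed levels moved by less than the SD. Depth limits *Bnc1*, *Muc16*, *Krt8* and *Upk1b* most, with 12, 57, 33 and 81 counts over the 6 libraries.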

Other observations

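Among the 10 genes outside the set whose levels over the 6 libraries, as log2(CPM + 0.5), were most like the mean of the standardised levels of the 8 tested markers were *Foxo3*, *Ubr4*, *Furin*, *Nup214*, *Dhx38*, *Cdc42bpb*, *Klf13*, *Map3k6* and *Ogfod2*, out of 13176 genes with a mean of at least 1 CPM. Pearson r of the genes named lay between 0.986 for *Ogfod2* and 0.997 for *Foxo3* (n = 6 libraries, which share their scaling), and none of these genes is in the lists of epicardial and mesothelial genes. *Foxo3*, a forkhead transcription factor, was at 110.0, 171 and 147 CPM in WT replicates 1, 2 and 3 and at 76.3, 99.7 and 108 CPM in CharmeKO replicates 1, 2 and 3. *Map3k6*, a kinase gene, was at 111, 243 and 161 CPM in WT and at 32.8, 59.3 and 68.0 CPM in CharmeKO. The mean of the markers that chose these genes placed every WT library above every CharmeKO library, so lower values in CharmeKO were set by the choice, and no test is given.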
